A study of Mus musculus with 6 samples.

Results

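The endothelial leukocyte adhesion genes described here are 8 genes chosen by name: the selectins Sele and Selp, the immunoglobulin-superfamily ligands Vcam1, Icam1 and Icam2, the junctional molecules Pecam1 and Jam2, and the storage-granule protein Vwf. All 8 were found once each among the 31054 features of the deposited matrices. Lungs of male C57BL/6 mice aged 21 months were profiled by droplet single-cell RNA sequencing, with 1 mouse per library and 3 libraries per group. For each library, 20000 cells without CD45 and 9000 with it were sorted and combined, so the proportion of immune cells was set by the sort.

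The group labelled p16-DTR carried p16-CreERT2 together with R26-LSL-DTR, an inducible Cre recombinase driven by the p16 promoter and a diphtheria toxin receptor that is silent until Cre acts. Controls carried p16-CreERT2 without the receptor. Both groups therefore had the Cre, and both received tamoxifen over 5 days. Following a 2-week gap they received 5 days of diphtheria toxin, and lungs were taken after a further 2 weeks. The design is meant to address how lungs differ after elimination of cells with high p16 expression in old age.

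Leukocytes leave the blood in steps that use these molecules in turn. Selectins on endothelium catch and roll leukocytes, VCAM-1 and the ICAMs hold them through leukocyte integrins, and PECAM-1 and the junctional adhesion molecules take part in passage between endothelial cells. P-selectin is stored with von Willebrand factor in Weibel-Palade bodies, while E-selectin, VCAM-1 and ICAM-1 are classical targets of inflammatory cytokine signalling. In the lung, much leukocyte traffic passes through capillaries, and venules and larger vessels carry more of the selectins.

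Library totals ranged from 254200305 to 344421685 UMIs (unique molecular identifiers, which count captured RNA molecules), and 12323 to 15713 cells per library were retained. No pair of libraries shared more than 94 cell barcodes. Cdkn2a, which encodes p16, was at 6.80, 8.52 and 7.32 CPM (UMIs of a gene per 1000000 UMIs of the cells named) in the p16-DTR-labelled libraries and at 1.20, 2.58 and 2.87 in the controls over all retained cells (log2 fold change 1.82, SE 0.31, edgeR adjusted p = 0.133). It was called higher by edgeR in venous cells, at 2.34, 3.38 and 4.23 against 0, 0 and 0.281 (adjusted p = 0.0103), in general capillary cells, at 3.91, 4.32 and 3.09 against 0.605, 0.251 and 0.460 (log2 fold change 3.16, adjusted p = 0.00557), and in lymphatic cells, with 17 UMIs in each p16-DTR-labelled library and 0 in each control (adjusted p = 0.0318). Over all endothelial cells it overlapped, at 8.16, 9.53 and 7.19 against 4.01, 6.96 and 8.30 (adjusted p = 0.359), as it did in aerocytes, the endothelial class with most Cdkn2a, at 43.3, 34.4 and 45.0 against 24.2, 37.8 and 43.3. The gene meant to mark the cells to be eliminated thus passed the test as higher in 3 endothelial classes of the p16-DTR-labelled libraries. It was lower in none of these sets of cells, and each direction below refers to the labels. Endothelial classes were rebuilt from marker genes that include none of the 8, and these genes were also kept out of the clustering: 18778 general capillary cells, 3182 aerocytes (the gas-exchange capillary type), 2710 venous, 1272 lymphatic and 928 arterial cells. All 9 pan-endothelial markers were present in venous cells, at a summed level of 9440 to 10369 CPM in the p16-DTR-labelled libraries and 8404 to 8973 in the controls. Named endothelial cells made up 32.4 to 34.3% of retained cells in the p16-DTR-labelled libraries and 24.7 to 34.9% in the controls.

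Selp and Vcam1 were lower in venous cells of the p16-DTR-labelled libraries, by 1.83-fold and 2.10-fold in mean level, and these were the members called by edgeR within a named endothelial class. Vcam1 also passed over all endothelial cells. Icam1, Icam2, Pecam1, Jam2 and Vwf were not called by edgeR in any endothelial class; DESeq2 called Selp and Vwf in general capillary cells and Vwf in 1 unnamed endothelial cluster. Outside endothelium, Pecam1 fell in CD4 T cells and natural killer cells and rose in alveolar type 2 cells, where its level is low.

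Each gene had its own distribution over endothelial classes, given here as a description without a test. Selp was highest in venous cells, at 459 ± 173 CPM (SD over 6 libraries), followed by arterial cells at 165 ± 87.0; the lowest venous library lay below the highest arterial one. Lymphatic cells had 24.5 ± 16.7, and general capillary and aerocyte levels lay at 1.99 or below in every library. Sele was highest in arterial cells, at 152 ± 62.1, and in venous cells, at 45.1 ± 27.3; the ranges of these 2 classes overlapped. Sele UMIs totalled 14 over all 18778 general capillary cells and 7 in aerocytes, so capillary endothelium held almost no Sele at this depth. Of all Selp UMIs in retained cells, 76.9% came from venous cells and 9.18% from arterial cells.

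Vcam1 was likewise a gene of larger vessels within endothelium, with 537 ± 68.6 CPM in arterial cells, 466 ± 229 in venous cells and at most 7.32 in any general capillary library. Arterial libraries ranged from 447 to 627 CPM and venous libraries from 240 to 874, so these classes overlapped. The means pool both groups, which were apart in venous cells. Most Vcam1 in these lungs was outside endothelium: named endothelial classes gave 15.5% of its UMIs, and alveolar fibroblasts had 327 ± 21.5 CPM. Icam1 had its highest level outside endothelium, at 858 ± 98.6 in alveolar type 1 cells, followed by 541 ± 40.8 in aerocytes and 440.0 ± 83.9 in venous cells. The lowest alveolar type 1 library lay above the highest aerocyte library, whereas aerocyte and venous values overlapped. Alveolar type 1 cells were shallow, with median depths of 2147 UMIs in the p16-DTR-labelled libraries and 3195 in the controls. The 9 pan-endothelial markers summed there to 2486 to 5342 CPM in the p16-DTR-labelled libraries and 2151 to 2680 in the controls. The part of such RNA in the Icam1 level was not tested.

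Icam2 was led by aerocytes, at 1635 ± 92.7 CPM, and every aerocyte library exceeded every general capillary library, where the mean was 614 ± 34.2. Pecam1, a general endothelial gene, ranged over blood endothelial classes from 1542 ± 60.4 in venous to 2355 ± 180 in arterial cells. Jam2 fell off from 398 ± 62.5 in arterial and 313 ± 20.8 in venous cells to 129 ± 6.33 in general capillary cells. Vwf was at 3550 ± 231 in venous and 2694 ± 366 in arterial cells, and the lowest venous library lay above the highest arterial one. General capillary cells had 324 ± 63.4 CPM of Vwf, and aerocytes at most 24.7.

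**Figure D1:**
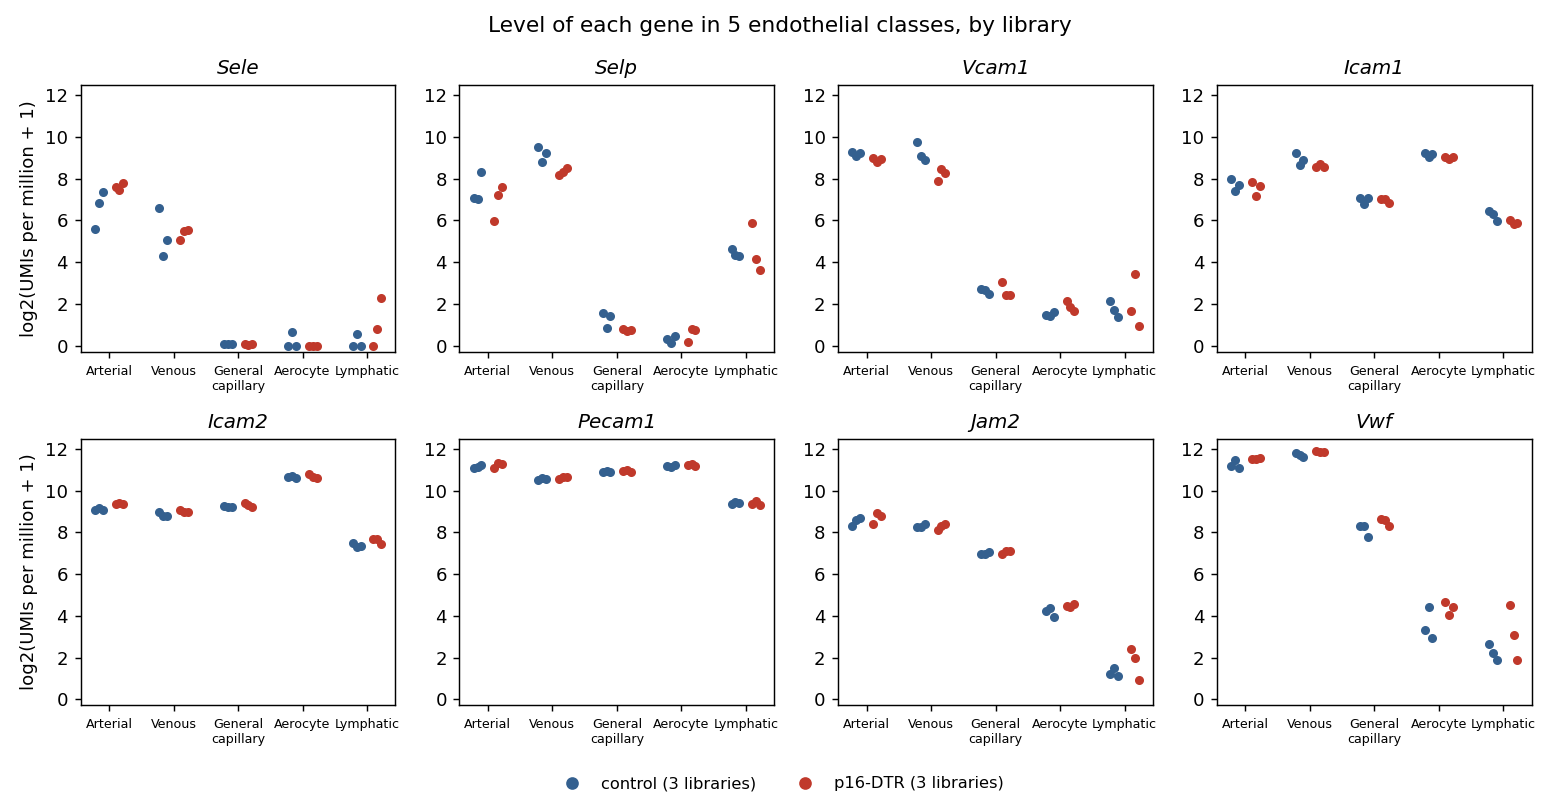
Level of each gene, as log2(CPM + 1), in 5 endothelial classes; each point is 1 library (blue control, red p16-DTR). Selp, Vcam1 and Vwf are high in arterial and venous cells, Icam2 is highest in aerocytes, and Pecam1 is similar across the 4 blood endothelial classes.

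Some endothelial clusters did not pass the naming rule and are called by their leading genes. The cluster led by Lama1 and Vegfc had 1514 ± 189 CPM of Vwf and 30.1 ± 24.2 CPM of Selp. The cluster led by Cxcl12 and Pde1c had 742 ± 111 CPM of Vwf. Neither held a member called by edgeR, against 1.42% of genes called in the first and 0.575% in the second. Each had 1 member at an unadjusted p below 0.05, beside 12.97% and 14.4% of genes, and DESeq2 called 1 (Vwf, log2 fold change 0.32, adjusted p = 0.0208) and 0, beside 3.21% and 1.97%. A smaller unnamed cluster led by Fabp4 and Timp4 (277 cells) had too few cells in some libraries to be tested.

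The selectins come first in the adhesion cascade. Selp encodes P-selectin, which binds PSGL-1 on leukocytes after release from storage granules, and in GRCm38 it spans chr1:164115264-164150026 on the plus strand. Sele encodes E-selectin and lies nearby on the same strand, at chr1:164048234-164057677. Their promoters from RefSeq (build GRCm38.p6), 250 bases before to 50 after the start, are shown because these 2 genes lie side by side. Their highest mean levels were in different endothelial classes, although arterial and venous ranges overlapped for both. Capitals mark matches on either strand to a broad kappa B motif (GGG, any 5 bases, CC), to GGAANTTCC or to TATAAA.
Selp, chr1:164115014-164115313, plus strand: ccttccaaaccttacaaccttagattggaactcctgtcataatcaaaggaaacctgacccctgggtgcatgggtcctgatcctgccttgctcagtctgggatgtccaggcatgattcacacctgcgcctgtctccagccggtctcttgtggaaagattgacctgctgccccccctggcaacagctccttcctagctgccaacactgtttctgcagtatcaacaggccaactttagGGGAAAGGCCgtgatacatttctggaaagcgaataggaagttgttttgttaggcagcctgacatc
Sele, chr1:164047984-164048283, plus strand: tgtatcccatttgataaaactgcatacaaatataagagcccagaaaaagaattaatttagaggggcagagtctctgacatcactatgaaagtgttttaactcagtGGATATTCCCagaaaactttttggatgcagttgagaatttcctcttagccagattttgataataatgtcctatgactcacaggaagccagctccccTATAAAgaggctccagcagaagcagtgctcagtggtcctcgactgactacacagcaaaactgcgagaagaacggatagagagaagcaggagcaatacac

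Of 32851 promoters of this length, 50.8% held the broad kappa B motif, 13.6% held TATAAA and 0.928% held GGAANTTCC on either strand. A narrower form of the first motif (GGG, any 2 bases, TT, any base, CC) was in 4.79%, AGATAA in 11.2% and CCGGAAG in 8.86%. None of these last 3 was found in the promoters printed here. The Selp window held the broad kappa B motif 15 bases before the start and no TATAAA, and the Sele window held both this motif and TATAAA. A match here is a string of letters, not an observed binding site.

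In venous cells Selp was at 291, 322 and 361 CPM in the p16-DTR-labelled libraries and at 730, 453 and 599 in the controls. All p16-DTR-labelled libraries lay below all 3 controls. The log2 fold change was -0.85 (SE 0.16, edgeR quasi-likelihood test, adjusted p = 0.0227). Here and below, groups without overlap are a description, and the share of all genes with such groups is not given. Selp and Vcam1 were the 2 of 8 tested members called in venous cells, where 3.77% of all genes were called. At an unadjusted p below 0.05 there were 3 members, beside 18.5% of all genes, and DESeq2 called 2, beside 5.01%. The Selp call was lost without any 1 of the 3 p16-DTR-labelled libraries (adjusted p of 0.0680, 0.0658 and 0.0589) and without control replicate 3 (0.0511), while the log2 fold change stayed between -1.01 and -0.69 when each library was left out in turn.

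Several marker lists of other cell types also differed between groups in the venous cells. Adventitial fibroblast markers summed to 883 to 985 CPM in the p16-DTR-labelled libraries and 656 to 725 in the controls, interstitial macrophage markers to 134 to 202 against 220.2 to 284 with Cd163 at 0, and aerocyte markers to 402 to 429.7 against 450.2 to 514. These sums do not show which genes of a list moved, or whether their RNA came from those other cell types or from venous cells themselves. The part of these lists in the Selp and Vcam1 results was not tested. The sum of the venous markers overlapped, at 6345 to 7445 against 6701 to 6927.

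The share of venous cells with a Selp UMI was lower as well. After each cell was thinned to 5000 UMIs, 21.6 ± 3.26% (SD, n = 3) of venous cells had a Selp UMI in the p16-DTR-labelled libraries and 32.4 ± 5.44% in the controls. The groups did not overlap, and the exact two-sided permutation p was 0.1, the smallest that 3 against 3 libraries allow. Unthinned, the shares were 30.6% and 42.2%. B cells, taken as a class that should lack the gene, gave 0.862% and 0.969% after thinning. Median depths were 17726 and 17547 UMIs in venous cells and 13354 and 12052 in B cells, and thinning left out 41 and 29 venous cells and 304 and 466 B cells.

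General capillary cells had 0.734, 0.635 and 0.669 CPM of Selp in the p16-DTR-labelled libraries and 1.99, 0.822 and 1.72 in the controls. These groups did not overlap either, and the log2 fold change of -1.10 (SE 0.32) had an edgeR adjusted p of 0.0927, and with DESeq2 the adjusted p was 0.0343. The thinned shares of general capillary cells with a Selp UMI, 0.321% and 0.275%, were below those of B cells and are read as background. Arterial Selp overlapped between groups, with 61.1, 148 and 195 against 135, 132 and 319 CPM. No member was called by edgeR in general capillary cells (2.7% of genes called) or in arterial cells (0.358%). At an unadjusted p below 0.05 there were 2 members in general capillary and 4 in arterial cells, beside 23.8% and 11.8% of all genes, and DESeq2 called 2 (Selp and Vwf) and 0, beside 8.62% and 1.69% of genes.

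Lymphatic Selp was 57.6 CPM in p16-DTR replicate 1 but 16.9 and 11.4 in the other libraries of that group, against 18.4 to 23.6 in the controls. No member was called by edgeR in lymphatic cells, where 0.268% of genes were. There were 2 at an unadjusted p below 0.05, beside 12.9% of genes, and 0 by DESeq2, beside 1.45%. Over all endothelial cells Selp was at 40.4, 38.3 and 42.3 CPM against 104, 59.1 and 107, with no overlap. The log2 fold change of -1.11 (SE 0.20) had an edgeR adjusted p of 0.0511, which was 0.0024 without control replicate 2 and 0.0675 to 0.149 without any other library.

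Venous Sele did not pass the test. Its levels were 32.8, 43.7 and 45.6 CPM in the p16-DTR-labelled libraries and 97.2, 18.5 and 32.9 in the controls. Control replicate 1 was the highest and control replicate 2 the lowest of the 6 libraries. The log2 fold change was -0.24 (SE 0.47, edgeR adjusted p = 0.838), and without control replicate 1 it was 0.65 (adjusted p = 0.22).

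Arterial Sele was at 192, 176 and 219 CPM in the p16-DTR-labelled libraries and 46.6, 115 and 163 in the controls. Every library labelled p16-DTR was above every control, with a log2 fold change of 0.83 (SE 0.30) and an edgeR adjusted p of 0.302. The difference between the venous and arterial log2 fold changes was -0.90 (SE 0.51, edgeR adjusted p = 0.621), a contrast chosen after seeing the data. Arterial cells with a Sele UMI after thinning made up 17.4 ± 3.63% and 8.92 ± 3.92% (exact permutation p = 0.1, two-sided, n = 3), and unthinned 21.7% and 13.3%. B cells gave 0.0980% and 0.219% after thinning and 0.224% and 0.434% before it. Median depths were 16248 and 16960 UMIs in arterial cells and 13354 and 12052 in B cells, and thinning left out 27 and 16 arterial cells. The arterial class held 102 to 194 cells per library, which limits the precision of these values.

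Vcam1 encodes VCAM-1, the ligand of the integrin VLA-4, and spans chr3:116109949-116129688 on the minus strand. Venous Vcam1 was at 240, 351 and 310.2 CPM in the p16-DTR-labelled libraries and at 874, 551 and 469 in the controls. The groups did not overlap, and control replicate 1 was the highest by a wide margin. This gave a log2 fold change of -1.05 (SE 0.22, edgeR adjusted p = 0.0337). Without each library labelled p16-DTR the adjusted p was 0.0985, 0.0566 and 0.110, so the call rested on all 3, and the log2 fold change stayed between -1.23 and -0.75 when each of the 6 libraries was left out.

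After thinning, 48.4 ± 6.64% of venous cells had a Vcam1 UMI in the p16-DTR-labelled libraries and 67.6 ± 8.02% in the controls (SD, n = 3). Library values were 49.8, 54.2 and 41.1% against 76.1, 66.4 and 60.2%, with no overlap and an exact two-sided permutation p of 0.1. The unthinned shares were 71.4% and 86.6%. B cells gave 0.635% and 0.999% after thinning.

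**Figure D2:**
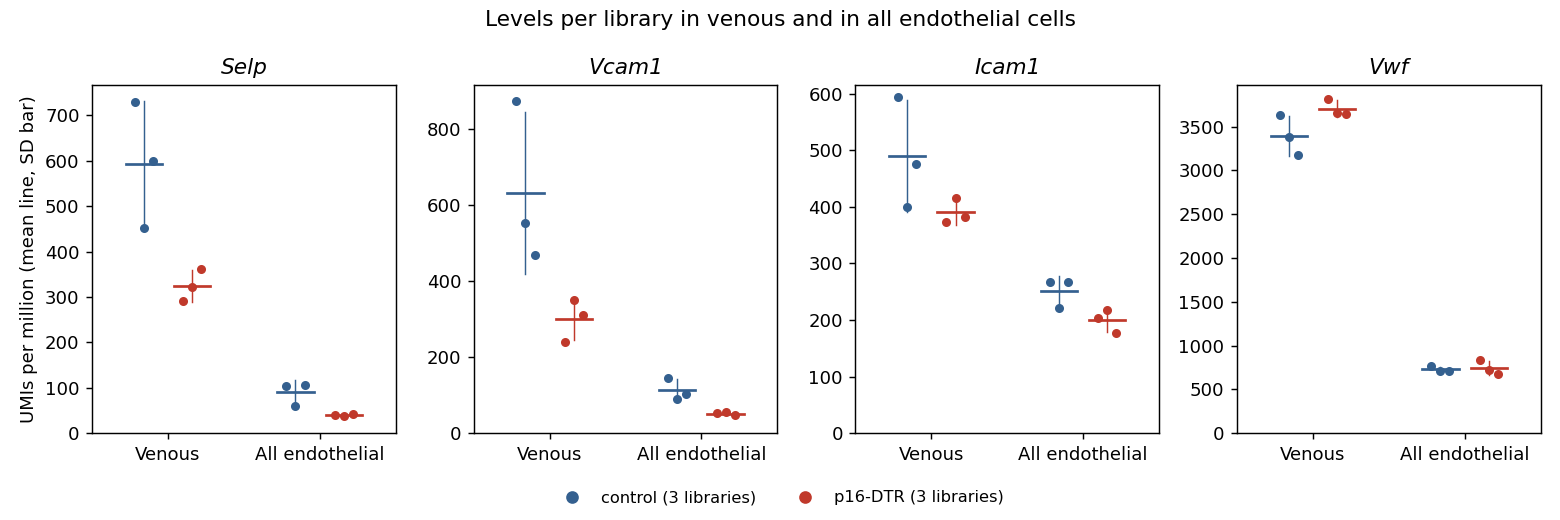
Selp, Vcam1, Icam1 and Vwf in CPM in venous and in all endothelial cells; points are libraries, lines are group means and bars are SDs of 3 libraries. The 3 red venous points of Selp and Vcam1 lie below the 3 blue points, whereas Icam1 overlaps in venous cells and the lowest red Vwf point lies just above the highest blue one there.

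Over all endothelial cells Vcam1 was at 52.1, 54.6 and 47.1 CPM in the p16-DTR-labelled libraries and at 145, 90.6 and 103 in the controls. Again the groups were apart, and the log2 fold change was -1.09 (SE 0.15, edgeR adjusted p = 0.0466). This was the 1 of 8 members called over all endothelial cells, where 0.69% of genes were called. At an unadjusted p below 0.05 there were 3 members, beside 23.6% of all genes, and DESeq2 called 2, beside 10.3%. The edgeR call of Vcam1 was lost without p16-DTR replicate 1 or 3 and without control replicate 1 or 3, at adjusted p from 0.0581 to 0.145. Venous cells gave 55.4 to 66.3% of the endothelial Vcam1 UMIs in the p16-DTR-labelled libraries and 68.5 to 78.7% in the controls. They were 8.27 to 10.2% of endothelial cells in the first group and 10.0 to 12.6% in the second. Arterial cells were 2.07 to 3.50% against 3.88 to 4.28%, and general capillary cells 69.8 to 77.5% against 64.6 to 67.9%. Aerocyte and lymphatic shares overlapped between groups. The part of this mix in the all-endothelial values of Vcam1, Selp and Icam1 was not tested.

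The venous Vcam1 difference was set against that in other endothelial classes in 1 model with library as a block. Against arterial cells, the other endothelial class with a high Vcam1 level, the difference of log2 fold changes was -0.72 (SE 0.23, edgeR adjusted p = 0.251); this contrast was chosen after seeing the data. Against the mean of all other 4 classes it was -1.27 (SE 0.30, adjusted p = 0.0419). That mean rests largely on classes with little Vcam1: aerocytes had 2.28 CPM from 139 UMIs, lymphatic cells 3.34 from 59 UMIs, too few for a test of their own, and general capillary cells 5.23, beside 1.60 in B cells. The second value therefore does not set venous cells apart from other vessels that express Vcam1. Vcam1 was the single member called in the venous contrast with the mean, where 0.768% of genes were, and no member was called in the contrasts for general capillary cells (0.014% of genes called), aerocytes (0.44%), arterial cells (0.0279%) or lymphatic cells (0.663%). In these 4 contrasts 0 members had an unadjusted p below 0.05, beside 5.13, 10.1, 8.87 and 12.03% of genes in that order. The venous contrast had 3 members at that threshold, Vcam1, Vwf and Jam2, beside 9.79% of genes. For Vcam1 against that mean, the adjusted p stayed below 0.05 without p16-DTR replicate 3 (0.0338) and not without any other library (0.0587 to 0.245), and the difference stayed between -1.50 and -1.10. The contrast with that mean for Selp was -0.91 (SE 0.59, adjusted p = 0.661).

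Arterial Vcam1 was at 509, 447 and 492 CPM against 627, 543 and 605, again without overlap, with a log2 fold change of -0.29 (SE 0.10) and an edgeR adjusted p of 0.286. In general capillary cells it was at 7.32, 4.34 and 4.36 against 5.54, 5.36 and 4.48. Aerocyte Vcam1 was at 3.40, 2.65 and 2.12 against 1.74, 1.68 and 2.06, apart between groups and resting on 139 UMIs in all, and no member was called in aerocytes, where 1.4% of genes were. In aerocytes 1 member had an unadjusted p below 0.05, beside 16.8% of genes, and DESeq2 called 0, beside 2.81%.

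Alveolar fibroblasts, the main source of Vcam1 outside endothelium, had 314, 329 and 308 CPM against 342, 309 and 362, overlapping between groups. Their log2 fold change was -0.07 (SE 0.07, edgeR adjusted p = 0.61). Adventitial fibroblasts, which surround larger vessels and airways, had a log2 fold change of 0.03 (SE 0.08, adjusted p = 0.92).

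Icam1 encodes ICAM-1, the ligand of the integrins LFA-1 and Mac-1, and spans chr9:21015985-21028817 on the plus strand. Its RefSeq promoter is shown for comparison with the selectins, since it held the GGAANTTCC motif that is in 0.928% of promoters.
Icam1, chr9:21015690-21015989, plus strand: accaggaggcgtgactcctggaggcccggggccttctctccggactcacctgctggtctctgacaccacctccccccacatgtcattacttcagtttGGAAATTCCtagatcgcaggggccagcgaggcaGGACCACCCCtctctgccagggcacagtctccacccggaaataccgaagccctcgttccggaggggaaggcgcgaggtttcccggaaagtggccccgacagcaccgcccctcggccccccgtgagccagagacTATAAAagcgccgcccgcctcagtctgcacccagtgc

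In venous cells Icam1 was at 373, 415 and 382 CPM in the p16-DTR-labelled libraries and at 594, 399 and 476 in the controls. The groups overlapped through control replicate 2. The log2 fold change was -0.31 (SE 0.13, edgeR adjusted p = 0.243). Over all endothelial cells it was at 204, 218 and 177 against 267, 220.5 and 267, apart by a narrow margin, with a log2 fold change of -0.28 (SE 0.09, adjusted p = 0.134). Aerocytes, the endothelial class with most Icam1, had 529, 490 and 521 against 601, 524 and 578, and the general capillary log2 fold change was 0.00 (SE 0.08).

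Outside endothelium, the Icam1 log2 fold change was below 0 in 11 of 16 tested classes and above 0 in 5, and none was called by edgeR. DESeq2 called it lower in alveolar fibroblasts (adjusted p = 0.0012), adventitial fibroblasts (0.00043) and alveolar type 2 cells (0.0165). The classes share the same 6 libraries, so these signs are not independent. Alveolar fibroblast Icam1 was 103, 102 and 96.5 CPM against 150.1, 119 and 137 (log2 fold change -0.41, SE 0.08, edgeR adjusted p = 0.0596), and adventitial fibroblast Icam1 was 135, 133 and 125 against 166, 171 and 166 (-0.35, SE 0.06, adjusted p = 0.064). Neither fibroblast class overlapped between groups. Alveolar type 1 cells, the class with most Icam1, had 699, 979 and 797 against 889, 862 and 922, which overlapped.

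Icam2 encodes ICAM-2, a constitutive ligand of LFA-1, and spans chr11:106377656-106388075 on the minus strand. Its log2 fold change was above 0 in all 5 endothelial classes, from 0.08 in aerocytes to 0.25 in arterial cells, and none was called. Arterial Icam2 was 660.0, 684 and 649 CPM against 546, 582 and 546. Those groups did not overlap, and the edgeR adjusted p was 0.303.

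Pecam1 encodes PECAM-1, a homophilic molecule of endothelial junctions that platelets and several leukocyte types also carry, and spans chr11:106654217-106750628 on the minus strand. Over all endothelial cells it was at 1890, 2048 and 1865 CPM in the p16-DTR-labelled libraries and at 1817, 1947 and 1922 in the controls. The groups overlapped, and log2 fold changes in the 5 classes lay between -0.03 and 0.09. Jam2, which encodes the junctional adhesion molecule JAM-B, spans chr16:84774123-84825928 on the plus strand. Venous Jam2 was 280, 319 and 334 CPM against 310.2, 300.2 and 334, with a log2 fold change of 0.00 (SE 0.09).

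Vwf encodes von Willebrand factor, the main cargo of Weibel-Palade bodies, and spans chr6:125546774-125686679 on the plus strand. Venous Vwf was 3818, 3654 and 3647 CPM in the p16-DTR-labelled libraries and 3627, 3381 and 3174 in the controls. The groups lay next to each other without overlap, with a log2 fold change of 0.15 (SE 0.08, edgeR adjusted p = 0.401). In general capillary cells Vwf was 393, 387 and 316 against 314, 314 and 218, with a log2 fold change of 0.41 (SE 0.14, adjusted p = 0.135); DESeq2 gave 0.42 with an adjusted p of 0.0332. Vwf UMIs were found in 99.9% of venous cells in both groups after thinning, so the share could not register a difference there.

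**Figure D3:**
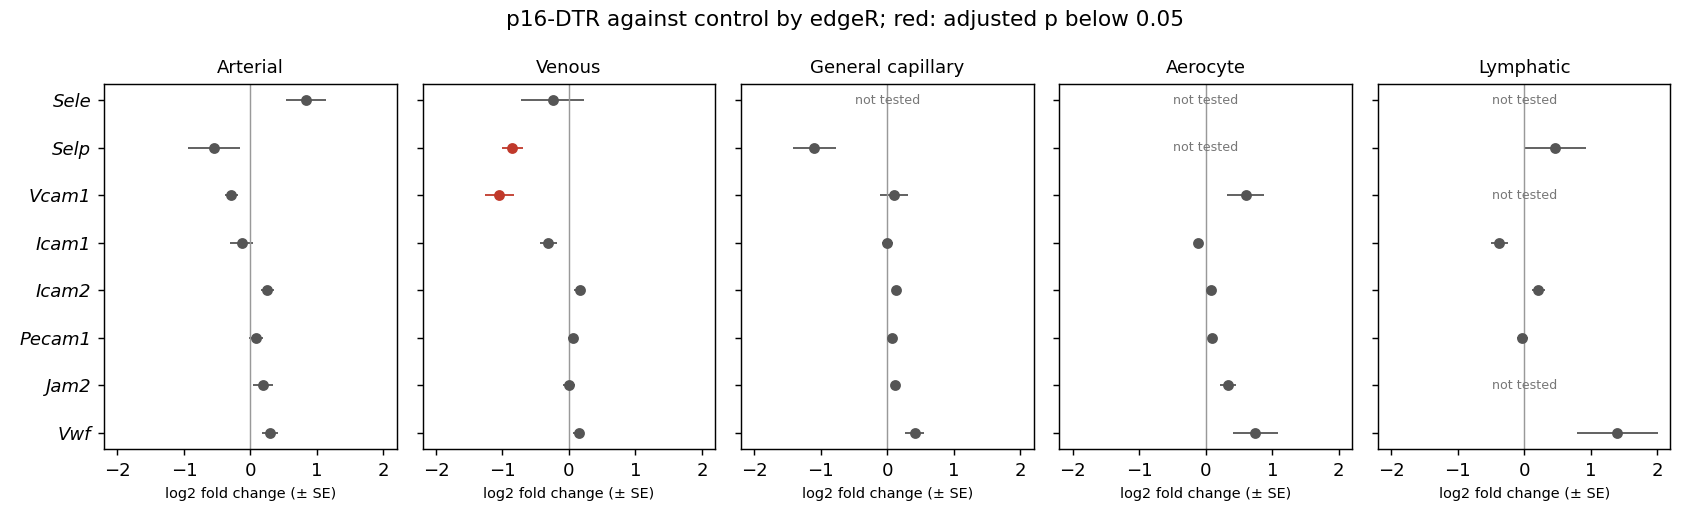
Log2 fold change of each gene in the 5 endothelial classes, p16-DTR against control, with bars of 1 SE from edgeR on 3 against 3 libraries; red marks an adjusted p below 0.05. Venous Selp (-0.85) and Vcam1 (-1.05) are the red points, and genes with too few UMIs in a class are marked as not tested.

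In 17 classes outside endothelium, 3 tests of members were called by edgeR, all of Pecam1, and 0.4% of all tests over genes in these classes were called. DESeq2 called 10 tests of members, beside 1.76% of its tests. CD4 T cells had 192, 168 and 175 CPM of Pecam1 in the p16-DTR-labelled libraries and 239, 268 and 274 in the controls. This gave a log2 fold change of -0.55 (SE 0.08, edgeR adjusted p = 0.0256). Natural killer cells had 60.3, 84.4 and 73.5 against 123, 142 and 118, and the log2 fold change was -0.81 (SE 0.13, adjusted p = 0.0127). In both cell types every library labelled p16-DTR was below every control.

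The sum of the 9 pan-endothelial markers overlapped between groups in both lymphocyte classes, at 65.8 to 81.5 against 54.7 to 81.1 CPM in CD4 T cells and 48.0 to 58.3 against 36.7 to 364 in natural killer cells. Its part in the Pecam1 differences was not tested. CD8 T cells had 85.3, 94.7 and 95.1 CPM of Pecam1 against 126, 163 and 134, also apart, with a log2 fold change of -0.61 (SE 0.09), an edgeR adjusted p of 0.129 and a DESeq2 adjusted p of 0.00017. The CD4 T cell call was lost without p16-DTR replicate 2 or 3 or control replicate 2 or 3, at adjusted p from 0.0599 to 0.130, and the natural killer call without p16-DTR replicate 3 or control replicate 1, at 0.0812 and 0.0528. With predicted doublets kept, the 2 log2 fold changes were -0.31 and -0.47 and neither was called.

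In alveolar type 2 cells, which make surfactant, Pecam1 was at 38.7, 39.2 and 15.1 CPM in the p16-DTR-labelled libraries and at 7.15, 5.71 and 6.58 in the controls. The log2 fold change was 2.29 (SE 0.33, edgeR adjusted p = 0.00998), on 655 UMIs in all. The 9 pan-endothelial markers moved with it, with a sum of 184 to 304 CPM in the p16-DTR-labelled libraries and 97.6 to 115 in the controls, and their part in the result was not tested. Vwf (log2 fold change 2.01, adjusted p = 0.0768) and Icam2 (1.74, adjusted p = 0.121) were also higher in every p16-DTR-labelled library there without an edgeR call, and DESeq2 called both (adjusted p of 0.0074 and 0.0289). The Pecam1 call was lost without control replicate 2 or 3 (adjusted p of 0.0514 and 0.0549), and with predicted doublets kept the log2 fold change was 0.62 (adjusted p = 0.543).

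**Figure D4:**
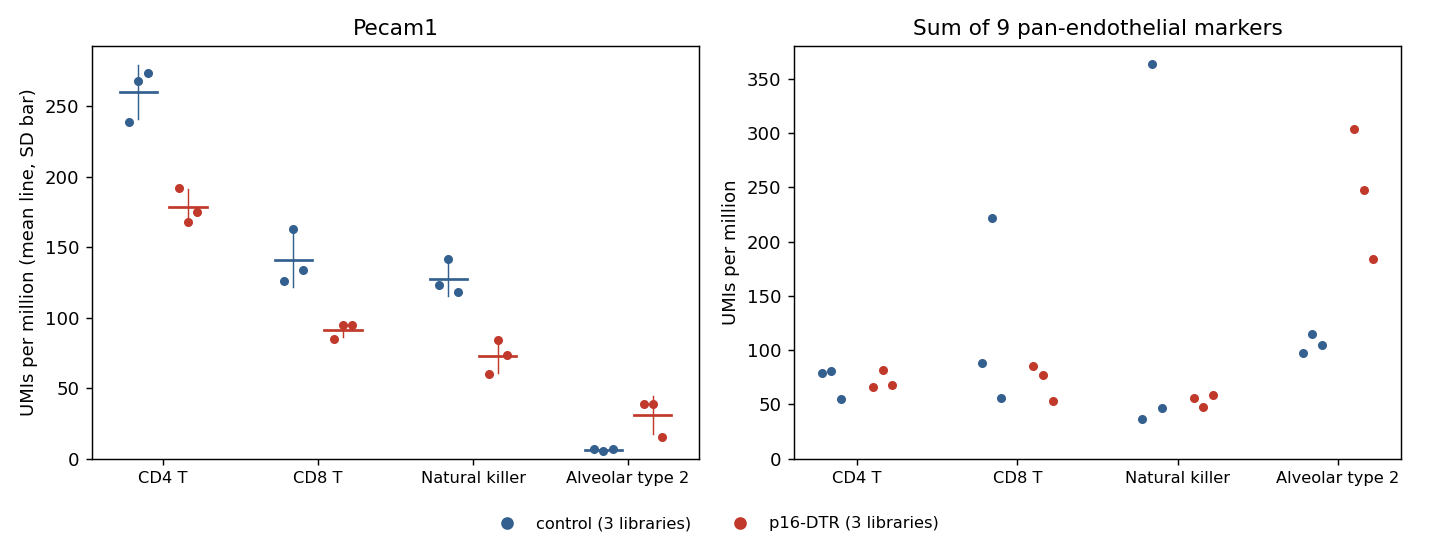
Left, Pecam1 in CPM in 4 non-endothelial classes, with group means and SDs of 3 libraries; right, the sum of 9 pan-endothelial markers in the same cells. Pecam1 is lower in red lymphocyte points, and in alveolar type 2 cells both Pecam1 and the marker sum are higher in red.

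Summed over all retained cells, none of the 8 members was called by edgeR, nor was any gene (0% of 21428 tested). At an unadjusted p below 0.05 there were 4 members, beside 22.6% of all genes, and DESeq2 called 2, beside 11.98% of genes. Selp was 13.2, 13.2 and 13.6 CPM against 21.5, 18.8 and 29.0 (log2 fold change -0.74, SE 0.15, edgeR adjusted p = 0.133). Icam1 was 123, 128 and 111 against 154, 147 and 160.3 (log2 fold change -0.30, SE 0.07, adjusted p = 0.133). Both were apart between groups, as a description. In such sums fewer cells of a type and less RNA per cell cannot be told apart. Control replicate 3 held 560 of 726 platelet cells, which carry Selp, Vwf and Pecam1, and without platelets the log2 fold changes of Selp and Vwf were -0.75 and 0.32.

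The rest of the adhesion pathway was followed in 7 lists of 82 genes. In venous cells 8 of 71 tested list genes were called (11.3%, beside 3.77% of all genes), 2 higher and 6 lower. General capillary cells had 4 of 72 (5.56%, beside 2.7%) and aerocytes 3 of 68 (4.41%, beside 1.4%). Lymphatic cells had 1 of 64 (1.56%, beside 0.268%), arterial cells 0 of 60 (beside 0.358%) and all endothelial cells 2 of 76 (2.63%, beside 0.69%). The lists were chosen with earlier results of these data known, so these shares are a description. In arterial cells 12 of the 60 list genes had an unadjusted p below 0.05, beside 11.8% of all genes. The median log2 fold change of the tested list genes in venous cells was 0.00, as was that of all genes.

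Cytokine input genes gave 2 lower calls among 14 tested in venous cells, where 3.77% of all genes were called. Tnfaip3, which encodes the NF-kB inhibitor A20, fell from 63.6 ± 5.55 CPM in the controls to 37.6 ± 2.25 (SD, n = 3; log2 fold change -0.74, SE 0.09, edgeR adjusted p = 0.00751). Relb, an NF-kB subunit, fell from 107 ± 20.6 to 68.4 ± 5.81 (-0.62, SE 0.13, adjusted p = 0.0337). In general capillary cells Relb also fell (-0.40, adjusted p = 0.0399), and Il4ra, a receptor chain for interleukins 4 and 13, rose (0.34, adjusted p = 0.0468).

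Transcription factors of endothelial activation and quiescence gave 1 call in each direction among 11 tested in venous cells, against the same 3.77%. Fli1, an ETS factor of endothelium, was 843, 796 and 636 CPM in the p16-DTR-labelled libraries and 1392, 1363 and 1174 in the controls. The groups were well apart, with a log2 fold change of -0.77 (SE 0.12, edgeR adjusted p = 0.0123). Gata2, a zinc-finger factor of endothelium and blood, rose from 205 ± 7.09 to 274 ± 26.8 (0.43, SE 0.08, adjusted p = 0.0267).

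In the list of storage granule and von Willebrand factor handling genes, Rab27a rose in 4 of 5 endothelial classes. This small GTPase acts in the trafficking of Weibel-Palade bodies. Venous Rab27a was 256, 257 and 297 CPM in the p16-DTR-labelled libraries against 151, 182 and 172, with a log2 fold change of 0.70 (SE 0.10, edgeR adjusted p = 0.0101). Log2 fold changes were 0.54 in general capillary cells, 1.04 in aerocytes and 0.64 in lymphatic cells, and 0.25 (adjusted p = 0.53) in arterial cells. Angpt2, the granule-stored ligand angiopoietin-2, fell in venous cells (-0.86, SE 0.19, adjusted p = 0.0424), and Plat, tissue plasminogen activator, rose in aerocytes (1.03, SE 0.14, adjusted p = 0.0104). Of the tested genes of this list, 2 of 12 were called in venous cells (beside 3.77% of all genes) and 2 of 12 in aerocytes (1.4%). General capillary cells had 1 of 11 (2.7%), lymphatic cells 1 of 10 (0.268%), arterial cells 0 of 10 (0.358%) and all endothelial cells 1 of 12 (0.69%).

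The other lists gave at most 1 call each in any endothelial fit. Among genes of adhesion and diapedesis, Mcam (CD146) rose in general capillary cells (log2 fold change 0.31, edgeR adjusted p = 0.0398) and over all endothelial cells (0.34, adjusted p = 0.0499), and F11r, which encodes JAM-A, rose in aerocytes (0.26, adjusted p = 0.0436). These were 1 of 12, 1 of 13 and 1 of 12 tested, beside 2.7%, 0.69% and 1.4% of all genes. That list had 0 of 13 called in venous, 0 of 11 in arterial and 0 of 12 in lymphatic cells. B4galt1, a galactosyltransferase of selectin ligand synthesis, fell in venous cells (-0.56, adjusted p = 0.0408). Cx3cl1, which encodes the membrane-bound chemokine fractalkine, fell in venous cells (-0.51, adjusted p = 0.032). B4galt1 was 1 of 4 and Cx3cl1 1 of 8 tested genes of their lists there, beside 3.77% of all genes. Neither list had a call in any other endothelial fit. No leukocyte counter-receptor gene passed in any of the 6 endothelial fits, with edgeR; at an unadjusted p below 0.05 there were 6 of 12 tested over all endothelial cells (beside 23.6% of all genes), 4 of 11 in general capillary cells (23.8%) and 3 of 8 in aerocytes (16.8%). Venous cells had 1 of 9 (18.5%), lymphatic cells 1 of 7 (12.9%) and arterial cells 0 of 4 (11.8%).

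**Figure D5:**
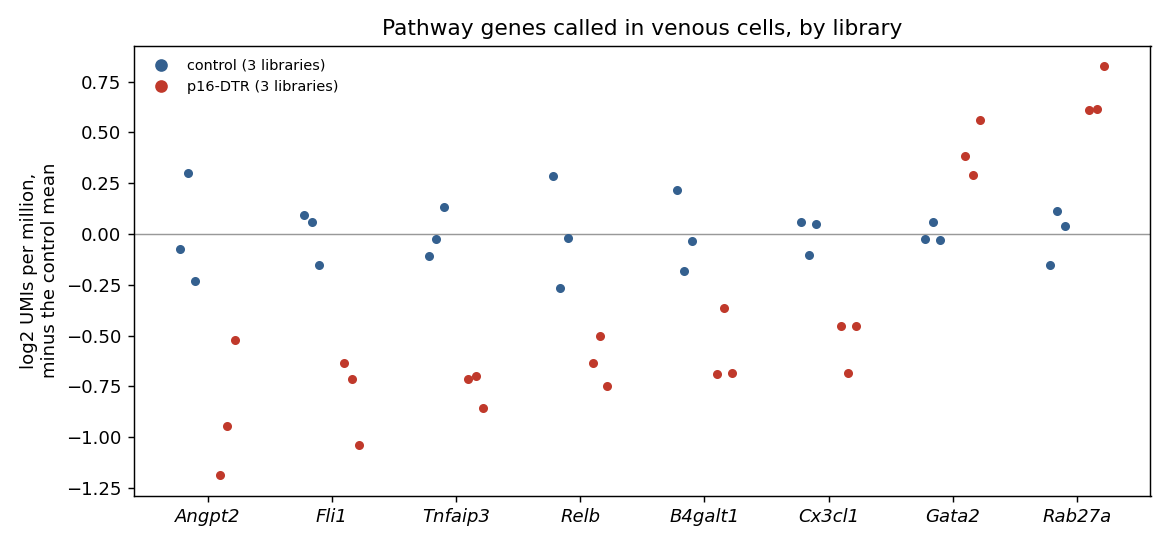
The 8 list genes called in venous cells, as log2 CPM minus the mean of the 3 controls; points are libraries. The 6 genes called lower have all red points below the blue ones, and Gata2 and Rab27a have all red points above.

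Genes with the most similar level across 22 classes were ranked by Pearson's r of log2(CPM + 1) over class means, as a description. Vwf was closest to Tcf23 (r = 0.963), Ano2 (0.930) and Edn1 (0.919). Selp and Sele were near each other (0.872), Selp also resembled Gm48748 (0.789) and Ano2 (0.771), and Sele resembled Slc18a2 (0.924) and Grin3a (0.877). Icam2 and Pecam1 were each other's closest gene (0.949). Next for Icam2 were Calcrl (0.937) and Ddah1 (0.922), and for Pecam1 S1pr1 (0.888) and Gm9889 (0.879).

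Vcam1, whose profile combines fibroblasts with large-vessel endothelium, was closest to Tmem45a (0.885), Mmp2 (0.864) and Spon1 (0.844). Jam2 was closest to Gm15657 (0.933), Hmcn1 (0.913) and Arhgap20 (0.912). For Icam1 the closest gene was Gm47079 (0.852), which the GENCODE M21 annotation places antisense over Icam1 itself, followed by Tpra1 (0.737) and Ptgs1 (0.734). Antisense or opposite-strand genes also overlap Selp (Gm16587 and Gm16548) and Vcam1 (Gm43109). No source used here states how strand was counted, and whether reads of 1 gene of a pair were counted for the other was not tested.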

How the data were processed

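For 6 lung libraries the authors deposited unnormalised UMI counts of each gene in each barcode, made with Cell Ranger 8.0.1 against mm10 per the submitters' processing notes. Barcodes with at least 300 genes, 500 UMIs and at most 15% mitochondrial UMIs were kept and predicted doublets removed, at an assumed rate of 0.4% per 1000 barcodes. Cells were clustered (Leiden, resolution 1.5, 2000 variable genes without the 8 members), and clusters were named from marker genes (27 of 77 stayed unnamed). Counts were summed per library and class, for 22 named classes with at least 50 cells in every library, and tested with edgeR 4.0.16 (TMM, filterByExpr, quasi-likelihood, Benjamini-Hochberg at 0.05 over all genes of a fit) in R 4.3.3. DESeq2 1.42.0 was an alternative. Standard errors were derived from the F statistic. Levels are CPM, computed here from the deposited counts as UMIs per 1000000 UMIs of a class. Shares of cells were thinned to 5000 UMIs, leaving out shallower cells. Permutation tests are exact and two-sided. Groups called apart or without overlap are described without the share of all genes for which this holds. Named genes are all 8 members, their 3 closest genes by class profile, and up to 4 called genes per pathway list. Members and lists were chosen with earlier results of these data known. Replicates are separate mice by their labels, and p-values measure the spread between these libraries. Positions are from GENCODE M21 on GRCm38; of the 8 members, 3 matched the RefSeq promoter table.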

Additional observations from a re-analysis of the deposited data

Results flagged for a closer look

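The venous difference in Vcam1 differed from the mean of those in the other 4 endothelial classes by a test of the difference itself. The difference of log2 fold changes was -1.27 (SE 0.30, edgeR adjusted p = 0.0419). It is the result here that a reader may want to check first, because the adjusted p ranged from 0.0338 to 0.245 when each library was left out, while the direction was the same in all 6 of these fits. Of the 4 classes averaged, aerocytes (139 UMIs), lymphatic cells (59 UMIs) and general capillary cells (5.23 CPM) held little Vcam1. Arterial cells, the remaining class, also had lower values in every library labelled p16-DTR, and against them alone the difference was -0.72 (SE 0.23, adjusted p = 0.251).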

How the results depend on the processing

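Venous and all-endothelial Vcam1 and Selp kept their direction under every alternative run. Members called over all retained cells were 2 with DESeq2 against 0. Over all endothelial cells, 1 member became 2 with library size scaling, no low-count filter or DESeq2, 0 with a per-cell gate in place of clusters, and 0 to 2 when each library was left out. In the endothelial classes, 2 calls became 6 with no filter, 4 with DESeq2, 1 with the per-cell gate and 0 to 4 without 1 library. In other classes, 3 became 17, 10, 0 with predicted doublets kept, and 2 to 4. Of all genes, DESeq2 called 10.3% over all endothelial cells, 5.01% in venous cells and 8.62% in general capillary cells. In other classes it called 1.76% of its tests. The shares of all genes called under the remaining alternatives are not given here. Among the pathway lists, 18 calls became 62 with no filter, 57 with DESeq2, 7 with the per-cell gate and 5 to 15 without 1 library. A gene was counted in each endothelial fit that called it, as Rab27a was in 5. These list alternatives, the fits of the venous Vcam1 contrast without 1 library (0 to 1 called), the contrast against arterial cells alone (0 called) and the fits without low-UMI clusters or with unnamed endothelial clusters were chosen after seeing the data. The per-cell gate gave venous Vcam1 -0.86 (edgeR adjusted p = 0.0544). Without the low-count filter edgeR gave far smaller adjusted p at nearly the same fold change (arterial Sele 0.84, adjusted p = 2.7e-08, against 0.83 and 0.302), so the counts with no filter are not comparable with the others. The causes were not tested.

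The replicate numbers were not used as pairs in the main fits. Deviations of same-numbered libraries correlated at 0.07, -0.15 and -0.03 over all endothelial cells and at -0.06, -0.14 and -0.02 in venous cells. Over all retained cells they correlated at 0.31, -0.0052 and 0.27, so not every pair was above 0.1 in any of these. Such correlations cannot show whether same-numbered libraries were handled together. With the replicate number as a block, calls of members were 0 over all endothelial cells, 0 in the endothelial classes and 5 in other classes. Calls of list genes were then 8, a gene being counted in each endothelial fit that called it. The shares of all genes called with this block are not given here. Venous Vcam1 was then -1.01 (edgeR adjusted p = 0.107) and venous Selp -0.83 (adjusted p = 0.0661), while venous Sele was 0.018 and venous Jam2 -0.0012. Of the 3 libraries labelled p16-DTR, 0 correlated best with their own number over all endothelial cells and in venous cells, and 2 over all retained cells and in lymphatic cells.

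Directions reversed for small or thinly counted differences. With predicted doublets kept the log2 fold changes were -0.083 for Sele over all retained cells, -0.20 for aerocyte Vcam1, -0.35 for lymphatic Selp, 0.046 for lymphatic Pecam1 and -0.0052 for venous Jam2. With the per-cell gate they were -0.66 for general capillary Vcam1, -0.063 for general capillary Icam1, -0.20 for aerocyte Vwf, -0.10 for venous Icam2 and 0.029 for lymphatic Pecam1. Library size scaling gave -0.039 for general capillary Icam1 and -0.019 for venous Jam2, the stricter filter -0.0010 and the coarser clustering -0.0053 for venous Jam2, no cell filter -0.071 for Sele over all retained cells, and no thinning -1.52 percentage points for the venous Icam2 share. Without 1 library, ranges crossed 0 for Sele over all retained cells (-0.11 to 0.18) and all endothelial cells (-0.32 to 0.12), Vwf over all endothelial cells (-0.0051 to 0.14), general capillary Vcam1 (-0.19 to 0.22) and Icam1 (-0.075 to 0.065), arterial Selp (-0.89 to 0.011) and Icam1 (-0.28 to 0.039), venous Sele (-0.64 to 0.65) and Jam2 (-0.056 to 0.076), and lymphatic Selp (-0.56 to 0.87) and Pecam1 (-0.081 to 0.023). Low UMI counts limit what can be said of Sele in capillary cells and Vcam1 in aerocytes. General capillary Sele was at 0.053 CPM, beside 0.273 in B cells, and aerocyte Vcam1 at 2.28, beside 1.60 in B cells.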
